A study of Homo sapiens with 6 samples.

Results

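The genes described here are 10 genes of the major histocompatibility complex (MHC) class II pathway, out of 39396 gene symbols in the deposited count table: HLA-DRA, HLA-DRB1, HLA-DRB5, HLA-DQA1, HLA-DQB1, HLA-DMA, HLA-DMB, HLA-DOB, CD74 and CIITA. They were taken from the table by symbol, and all 10 were present. They had been chosen with the olaparib against DMSO difference in these same libraries in view, so their values are given as a description and support nothing. No p-value is given for them. Their calls in the fit over all genes are counted below, but nothing is read from those calls. MHC class II molecules are pairs of an alpha and a beta chain that present peptides from endosomes to CD4+ T cells. CD74, the invariant chain, fills the groove of a new molecule and guides it to the endosome, where HLA-DM exchanges the last piece of CD74 for a peptide and HLA-DO restrains HLA-DM. CIITA is the coactivator that switches these genes on. It does not bind DNA itself but docks on proteins at a shared promoter module, and epithelial cells usually lack it until interferon-gamma induces it.

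RNA sequencing was carried out on 3 libraries labelled olaparib and 3 labelled DMSO. All 6 carry the label RKO, a human colorectal carcinoma line, with genotype WT and no other allele or agent. Olaparib is an inhibitor of PARP enzymes and DMSO is its solvent. The sources used here do not give the dose or duration of treatment, and no label states that replicates were separate cultures, so the spread between them may be technical.

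The libraries held 28715138 to 42423785 counts. Of 17078 genes that passed the expression filter, 75.7% differed between olaparib and DMSO in the edgeR quasi-likelihood test at an adjusted p of 0.05, with 35.4% higher and 40.3% lower in olaparib. The median log2 fold change over all tested genes was -0.09. Genes that mark a human embryonic kidney line stood apart from the RKO label. The summed level of 7 such markers was 10.5 to 13.9 CPM (counts per 1000000 counts of the scaled library) in the olaparib libraries and 231 to 414 CPM in the DMSO libraries, and 6 of the 7 were lower in olaparib. IRS4, an insulin receptor substrate, averaged 0.0468 CPM in olaparib and 142 CPM in DMSO. CDX2, the intestinal transcription factor, had 0 counts in olaparib and 24.5 CPM in DMSO, whereas 3 of the 4 tested colon epithelium markers, EPCAM, KRT8 and KRT18, were higher in olaparib. The 8 colon markers summed to 806 to 1088 CPM in olaparib and 241 to 309.9 CPM in DMSO. Most of both sums was KRT8 (581 CPM in olaparib, 175 CPM in DMSO) and KRT18 (400.4 CPM in olaparib, 75.3 CPM in DMSO). KRT20, CDX1, VIL1 and LGALS4 averaged at most 0.205 CPM in either group and were not tested. A difference in the source of the cells cannot be told apart from treatment, and every direction below is between libraries as labelled.

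The promoter sequences are shown because class II genes are known to share an arrangement of short motifs, known as the X box and the Y box, to which RFX and NF-Y bind and on which CIITA docks. RefSeq promoter windows (build GRCh38.p14, 250 bases before to 50 bases after each start) were held for 8 of the 10 genes (not HLA-DRA and CIITA). The search covered both strands for AGNAAC, a core of the X box (GTTNCT on the other strand), for ATTGG, the core of the Y box (CCAAT on the other strand), and for CTGATGA, which was added after the stretches had been seen and can overlap AGNAAC. Capitals below mark these matches, and each stretch is read in the direction of its gene. Each was cut around the ATTGG farthest upstream of the start, or around CCAAT where ATTGG was missing. A Y box match therefore stands in every stretch by construction. The CD74 stretch, which held AGAAAC and CCAAT, is not printed. The first 4 stretches belong to antigen-presenting chains that had 0 counts in olaparib.
HLA-DRB1: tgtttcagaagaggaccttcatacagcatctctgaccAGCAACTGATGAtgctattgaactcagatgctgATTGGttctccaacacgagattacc
HLA-DRB5: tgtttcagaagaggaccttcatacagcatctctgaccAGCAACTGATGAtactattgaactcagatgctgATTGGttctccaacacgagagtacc
HLA-DQA1: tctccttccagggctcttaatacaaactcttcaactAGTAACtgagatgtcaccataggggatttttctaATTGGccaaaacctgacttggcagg
HLA-DQB1: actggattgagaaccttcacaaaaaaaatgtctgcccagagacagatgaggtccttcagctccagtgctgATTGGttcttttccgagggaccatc

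These stretches lie on the minus strand at chr6:32589870-32589964 (HLA-DRB1), chr6:32530353-32530447 (HLA-DRB5) and chr6:32666721-32666815 (HLA-DQB1), and on the plus strand at chr6:32637268-32637362 (HLA-DQA1). The HLA-DRB1 and HLA-DRB5 stretches differed at 2 of 95 bases. In both, 27 bases separated the AGNAAC and ATTGG matches, and in HLA-DQA1 28 bases did. The next 3 stretches belong to the peptide editors HLA-DM and HLA-DO, whose genes differed in direction between the groups.
HLA-DMB: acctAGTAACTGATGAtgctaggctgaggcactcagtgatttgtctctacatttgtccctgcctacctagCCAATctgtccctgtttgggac
HLA-DMA: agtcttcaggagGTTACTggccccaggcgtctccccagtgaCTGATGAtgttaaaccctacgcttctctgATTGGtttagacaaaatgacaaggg
HLA-DOB: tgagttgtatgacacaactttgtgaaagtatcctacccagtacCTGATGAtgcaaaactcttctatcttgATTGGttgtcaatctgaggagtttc

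In HLA-DMA the AGNAAC match was on the other strand. The 3 stretches lie on the minus strand at chr6:32941029-32941120 (HLA-DMB), chr6:32953152-32953246 (HLA-DMA) and chr6:32817076-32817170 (HLA-DOB). AGNAAC followed by ATTGG after 20 to 40 bases was found in 3 of the 8 windows (HLA-DRB1, HLA-DRB5 and HLA-DQA1) and in 310 of all 35116 RefSeq windows (0.883%). A spacing of 15 to 50 bases gave the same 3 of 8, against 1.57% of all windows. ATTGG alone stood in 8 of 8 windows, against 34.6% of all windows, and AGNAAC alone in 6 of 8, against 42.4%. CTGATGA stood in 5 of 8 (HLA-DRB1, HLA-DRB5, HLA-DMA, HLA-DMB and HLA-DOB), against 3.28% of all windows. Because it was picked from these same windows, nothing is read from that share. The HLA-DRB1 and HLA-DRB5 stretches are also nearly the same sequence. CGTCA, a core of the X2 box, stood in 3 of 8, against 24.6%, and between the other cores in 0 of 8, against 0.0313%. A match is a description of letters, and its absence says only that these letters are not in the window. The HLA-DMA, HLA-DMB and HLA-DOB windows shared CTGATGA. HLA-DOB was higher in olaparib, HLA-DMB was lower and the HLA-DMA groups overlapped. A link between these letters and the levels was not tested.

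The antigen-presenting DR and DQ chain genes were at or near 0 in the olaparib libraries and were detected in every DMSO library. HLA-DRA, the alpha chain shared by all DR molecules (chr6:32439842-32445046, plus strand), had 0.0698, 0 and 0 CPM in olaparib replicates 1, 2 and 3 and 0.997, 0.876 and 0.588 CPM in DMSO replicates 1, 2 and 3. Its 2 olaparib counts were both in replicate 1, against 42, 26 and 26 counts in DMSO. Every olaparib library lay below every DMSO library, and the mean was 35.5-fold lower in olaparib (95% counting interval 9.55 to 297). Without olaparib replicate 1 no olaparib count remained. In bulk RNA, fewer cells that express a gene and less RNA per cell cannot be told apart.

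HLA-DRB1, the beta chain gene carried by every human haplotype (chr6:32578769-32589848, minus strand), had 0 counts in all 3 olaparib libraries and 691, 445 and 595 counts in DMSO. These DMSO counts came to a level of 13.5 to 16.4 CPM, with an SD of 1.48 CPM over the 3 libraries. Against a floor of 3 counts over the 3 olaparib libraries (0.0343 CPM), HLA-DRB1 was at least 435-fold lower in olaparib. HLA-DRB5, a further DR beta gene present on some haplotypes (chr6:32517343-32530287, minus strand), had 0 counts in all 3 olaparib libraries and 4.94, 4.38 and 4.75 CPM in DMSO. Its level in olaparib was at least 138-fold lower. HLA-DRB1 and HLA-DRB5 transcripts are close copies. Of the 50-base words in HLA-DRB1 transcripts, 8.64% also occurred in HLA-DRB5, so the split of reads between them is uncertain. The groups did not overlap for either gene.

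HLA-DQA1, the DQ alpha chain (chr6:32628179-32647062, plus strand), had 0 counts in the 3 olaparib libraries and 0.38, 0.337 and 0.678 CPM in DMSO, from 16, 10 and 30 counts. It was at least 14.1-fold lower in olaparib. HLA-DQB1, the DQ beta chain (chr6:32659467-32668383, minus strand), had 0 counts in the 3 olaparib libraries and 25.0, 28.4 and 22.4 CPM in DMSO. Its level in olaparib was at least 727-fold lower. Both DQ genes separated the groups completely. Of all tested genes, 3.40% had 0 counts in every olaparib library, against 4 of the 10 genes described here, a share from which nothing is read because the genes were chosen on this contrast.

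**Figure D1:**
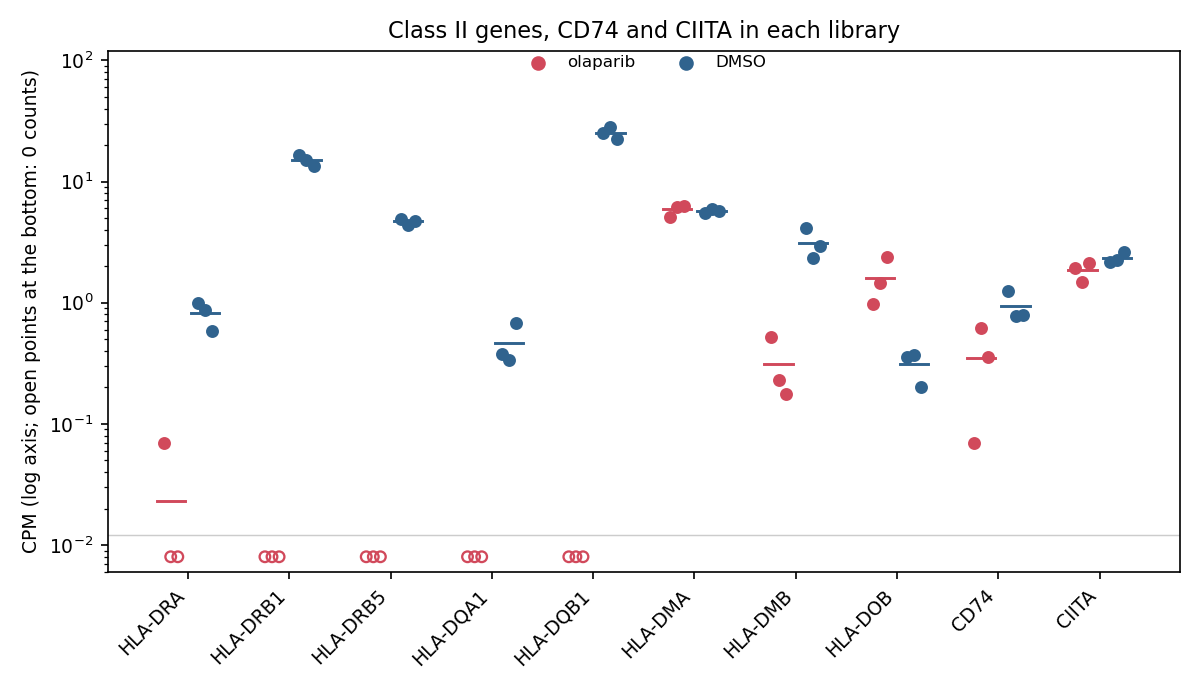
Level of each of the 10 genes in each library, in CPM on a log axis, with olaparib at the left and DMSO at the right of each gene. Bars are means of 3 libraries and open points at the bottom are libraries with 0 counts. HLA-DRB1, HLA-DRB5, HLA-DQA1 and HLA-DQB1 have open points in all 3 olaparib libraries, HLA-DMA overlaps between the groups, and HLA-DOB is the gene with every olaparib point above every DMSO point.

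The peptide editor genes differed in direction between the groups. HLA-DMA, the alpha chain of HLA-DM (chr6:32948613-32969094, minus strand), had 5.13, 6.17 and 6.33 CPM in olaparib and 5.51, 5.90 and 5.72 CPM in DMSO. The groups overlapped, and the log2 fold change was 0.04, or -0.02 with library size as the only scaling. HLA-DMB, its beta chain partner (chr6:32934629-32941070, minus strand), had 0.523, 0.229 and 0.177 CPM in olaparib and 4.11, 2.33 and 2.92 CPM in DMSO. Every olaparib library was below every DMSO library, with means of 0.31 ± 0.187 CPM in olaparib and 3.12 ± 0.908 CPM in DMSO (SD, n = 3 each), a 10.0-fold lower level in olaparib. The log2 fold change was -3.32, or -3.92 without olaparib replicate 1.

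HLA-DOB, the beta chain of HLA-DO, which in textbook accounts is most abundant in B cells (chr6:32812763-32820466, minus strand), ran the other way. It had 0.977, 1.44 and 2.37 CPM in olaparib and 0.356, 0.371 and 0.203 CPM in DMSO. All 3 olaparib libraries lay above all 3 DMSO libraries, with means of 1.59 ± 0.71 CPM in olaparib and 0.31 ± 0.0926 CPM in DMSO, 5.16-fold higher in olaparib. Its upstream neighbour TAP2, a subunit of the class I peptide transporter, averaged 61.8 ± 2.27 CPM in olaparib and 24.7 ± 2.45 CPM in DMSO (adjusted p = 3.46e-07 in edgeR). An annotated transcript AL669918.1 lies over HLA-DOB on the same strand and holds 33.1% of the 50-base words of HLA-DOB. Its part in the HLA-DOB count was not tested.

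Similar overlaps touch the HLA-DM genes. The annotated transcript AL645941.2 holds 8.7% of the 50-base words of HLA-DMA and 27.1% of those of HLA-DMB. BRD2, a bromodomain protein gene, overlaps the annotated span of HLA-DMA on the opposite strand, and it averaged 318 ± 9.22 CPM in olaparib and 621 ± 17.8 CPM in DMSO. The sources used here do not give the strand setting of the counting, so reads from HLA-DMA and BRD2 where they overlap cannot be told apart.

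CD74, the invariant chain (chr5:150401637-150412929, minus strand), was low in both groups. It had 0.0698, 0.621 and 0.354 CPM in olaparib, from 2, 19 and 10 counts, and 1.26, 0.775 and 0.791 CPM in DMSO, from 53, 23 and 35 counts. The groups did not overlap, but olaparib replicate 2 came close to the lower DMSO libraries. The log2 fold change was -1.42 (2.68-fold lower in olaparib), with -0.95 without olaparib replicate 1 and -2.14 without olaparib replicate 2.

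CIITA, the coactivator itself (chr16:10866222-10943021, plus strand), was detected in all 6 libraries. It had 1.95, 1.47 and 2.12 CPM in olaparib, from 56, 45 and 60 counts, and 2.18, 2.26 and 2.60 CPM in DMSO, from 92, 67 and 115 counts. Every olaparib library lay below every DMSO library, yet the gap between the nearest libraries was small. The means were 1.85 ± 0.339 CPM in olaparib and 2.35 ± 0.222 CPM in DMSO, a log2 fold change of -0.35 (1.27-fold lower in olaparib) that ran from -0.44 to -0.20 as each library was left out. DEXI overlaps CIITA on the opposite strand and averaged 4.72 ± 1.03 CPM in olaparib and 4.34 ± 0.762 CPM in DMSO. With the strand setting not given, reads from CIITA and DEXI where they overlap cannot be told apart. The annotated transcript AC133065.3 on the same strand holds 13.9% of the 50-base words of CIITA.

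Across the 10 genes, 8 were lower in every olaparib library than in any DMSO library, 1 was higher and 1 overlapped. Over all tested genes, 79.4% did not overlap between the groups (42.0% lower and 37.3% higher in olaparib). In the fit over all genes 8 of the 10 were called, 7 lower and 1 higher, where 75.7% of all tested genes were called. CD74 was not called under DESeq2, nor when any library other than olaparib replicate 2 was left out, which left 7 called. All 10 passed the expression filter. Since these genes were chosen on the same contrast, nothing is read from these counts. The median log2 fold change of the 10 genes was -4.14, or -3.57 with the genes at 0 counts set to their bound, and the median size of change over all tested genes was 0.94.

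Levels of different genes were compared as CPM per kilobase of transcript. In DMSO, HLA-DQB1 (15.3 ± 1.84) stood at the top, followed by HLA-DRB1 (12.2 ± 1.2), HLA-DMA (5.08 ± 0.174), HLA-DRB5 (3.72 ± 0.225) and HLA-DMB (2.23 ± 0.65), each with SD over 3 libraries. Below them came CD74 (0.827 ± 0.241), HLA-DRA (0.641 ± 0.164), CIITA (0.504 ± 0.0476), HLA-DQA1 (0.386 ± 0.154) and HLA-DOB (0.226 ± 0.0675), and each of these overlapped its neighbour in the order within 1 SD. In olaparib, HLA-DMA (5.23 ± 0.583) was followed by HLA-DOB (1.16 ± 0.518). CIITA (0.397 ± 0.0728), CD74 (0.306 ± 0.242) and HLA-DMB (0.222 ± 0.134) then overlapped within 1 SD, and HLA-DRA was at 0.0182 with the other 4 genes at 0.

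The chains of 1 molecule were far from equal, although each class II molecule holds 1 alpha and 1 beta chain. In DMSO, HLA-DRB1 per kilobase was 17.1, 17.8 and 23.8 times HLA-DRA in replicates 1, 2 and 3. HLA-DQB1 per kilobase was 48.0, 61.5 and 24.0 times HLA-DQA1 in the same libraries. HLA-DMA per kilobase was 12.2, 33.6 and 44.5 times HLA-DMB in olaparib and 1.67, 3.16 and 2.44 times in DMSO. Thus the beta chain gene was the higher member of the DR and DQ pairs in DMSO, and the alpha chain gene was the higher member of the DM pair in all 6 libraries. These ratios rest on the annotated transcript lengths. The DR beta and DQ genes are highly polymorphic, and how well reads from the alleles of these cells were placed was not tested.

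**Figure D2:**
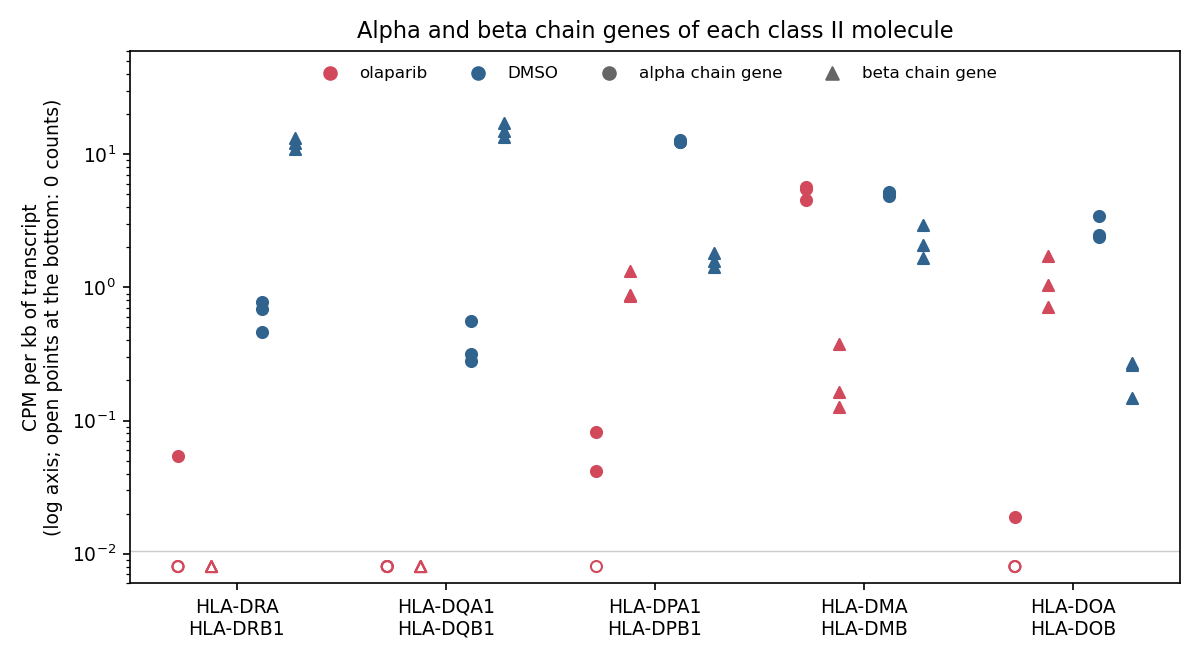
Level per kilobase of transcript (log axis) of the alpha chain gene (circles) and the beta chain gene (triangles) of 5 class II molecules, with olaparib at the left and DMSO at the right of each pair and 1 point for each library. Open points at the bottom are libraries with 0 counts. The DR and DQ beta genes lie above their alpha genes in DMSO, HLA-DMA lies above HLA-DMB in all 6 libraries, and the 2 HLA-DO genes swap order between olaparib and DMSO.

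The other class II genes are not among the 10 and were tested in the fit over all genes. This list and those below were also chosen with earlier results of these data known. They lend the 10 genes no independent support. Of 12 found in the table, 3 passed the expression filter: HLA-DPA1 and HLA-DOA fell and HLA-DPB1 was not called, with a median log2 fold change of -8.21 against -0.09 over all tested genes. HLA-DPA1, the DP alpha chain, averaged 0.0701 ± 0.0698 CPM in olaparib and 21.4 ± 0.537 CPM in DMSO, a 296-fold lower level in olaparib (log2 fold change -8.21 ± 0.35 SE, edgeR adjusted p = 1.64e-09). The log2 fold change was -9.15 without olaparib replicate 1 and -7.61 without olaparib replicate 2. HLA-DOA, the alpha chain of HLA-DO, had 0, 2 and 0 counts in olaparib and 510, 256 and 370 counts in DMSO. It was 429-fold lower in olaparib (95% counting interval 118 to 3543, edgeR adjusted p = 2.06e-08). Its log2 fold change was -8.52, and -11.39 without olaparib replicate 2, where no olaparib count remained and the fitted value is no bound. The RefSeq window of HLA-DOA also held AGNAAC followed by ATTGG after 28 bases.

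HLA-DPB1, the DP beta chain, averaged 1.58 ± 0.406 CPM in olaparib and 2.5 ± 0.301 CPM in DMSO, a log2 fold change of -0.66 ± 0.29 (edgeR adjusted p = 0.0563). Over the alternatives its adjusted p ran from 0.0349, without olaparib replicate 3 and at a log2 fold change of -0.87, to 0.173. HLA-DPA1 and HLA-DPB1 overlap on opposite strands, so their reads there cannot be told apart. The DP and DO pairs each held 1 chain that was nearly absent from olaparib and another that was not. Per kilobase, HLA-DPA1 was 0.0819, 0 and 0.0415 and HLA-DPB1 was 0.872, 0.859 and 1.32 in olaparib, whereas in DMSO HLA-DPA1 was 7.92, 6.78 and 8.99 times HLA-DPB1. HLA-DOA per kilobase was 0, 0.0187 and 0 beside 0.712, 1.05 and 1.73 for HLA-DOB in olaparib, and in DMSO it was 13.4, 9.15 and 16.2 times HLA-DOB.

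The remaining class II genes were too low to test. The pseudogene HLA-DRB9 had 0 counts in olaparib and 0.16 CPM in DMSO, and the antisense gene HLA-DQB1-AS1 had 0 counts in olaparib and 0.22 CPM in DMSO. HLA-DPB2 had 0 counts in olaparib and 0.0608 CPM in DMSO. HLA-DPA2, another pseudogene, had 6, 2 and 5 counts in olaparib and 0 in each DMSO library, at least 5.74-fold higher in olaparib. HLA-DQA2, HLA-DQB2, HLA-DRB6 and HLA-DPA3 held at most 2 counts, all in DMSO, and HLA-DQB3 held 0 counts in all 6 libraries.

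**Figure D3:**
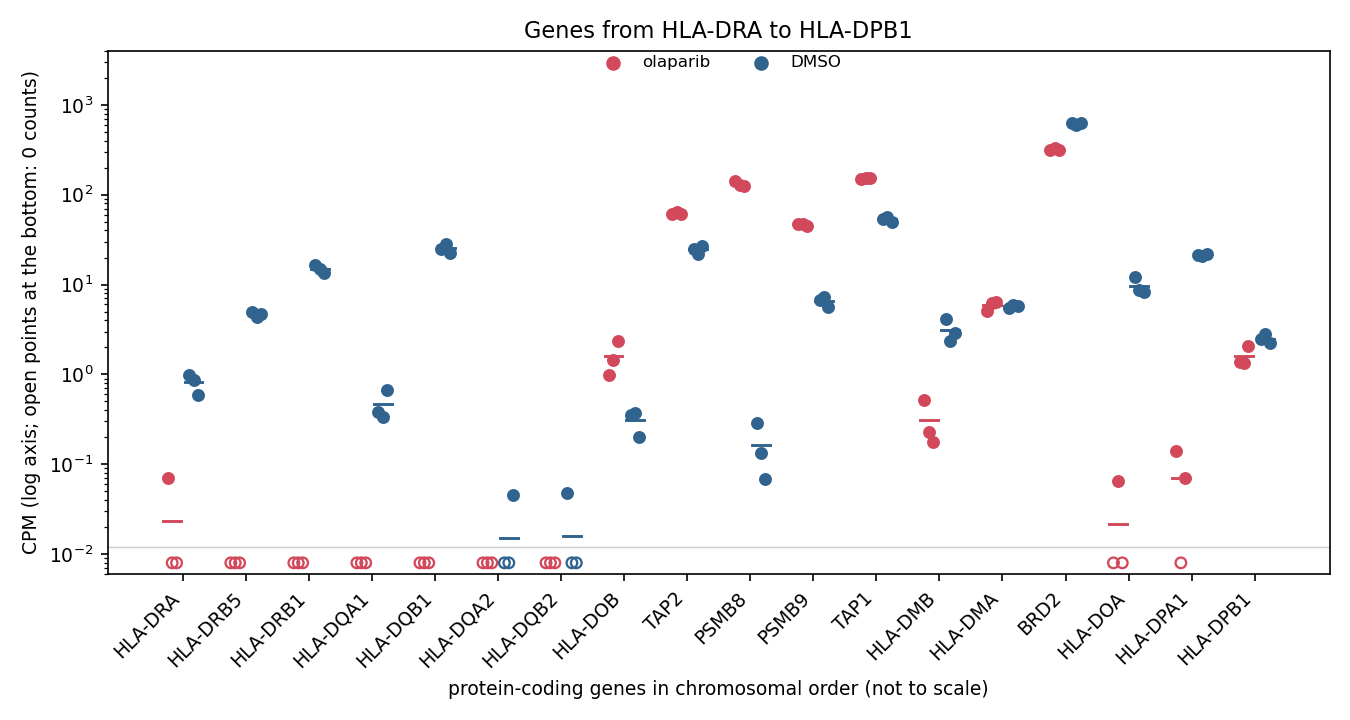
Level (CPM, log axis) of the protein-coding genes from HLA-DRA to HLA-DPB1 on chromosome 6, in chromosomal order and not to scale, with olaparib at the left and DMSO at the right of each gene, bars for means and open points for libraries with 0 counts. The class I genes TAP2, PSMB8, PSMB9 and TAP1 are above DMSO in olaparib, between HLA-DOB, which is also above, and HLA-DMB, which is below.

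The genes around the class II genes lay in both directions, as did all tested genes (35.4% higher and 40.3% lower in olaparib). Of 47 other tested protein-coding genes within 500 kb of HLA-DRA to HLA-DMA, among them HLA-DPA1, HLA-DPB1 and HLA-DOA, 21 were higher and 14 lower in olaparib and 12 were not called, with a median log2 fold change of 0.05. PSMB8, a subunit of the immunoproteasome that lies between HLA-DOB and HLA-DMB, averaged 131 ± 9.21 CPM in olaparib and 0.163 ± 0.111 CPM in DMSO, 784-fold higher in olaparib (edgeR adjusted p = 7.57e-11). With 12, 4 and 3 counts in DMSO, its log2 fold change of 9.61 became 10.36 without DMSO replicate 1. Around CD74, 3 of 14 tested genes were higher and 9 lower, with a median of -0.88. RPS14, the ribosomal protein gene next to it, averaged 335 ± 3.37 CPM in olaparib and 1075 ± 199.8 CPM in DMSO. Around CIITA, 2 of 8 tested genes were higher and 3 lower, with a median of 0.02.

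The proteins that bind the class II promoter were expressed in both groups. Of 7 such genes, 2 rose, 1 fell and 4 were not called, with a median log2 fold change of -0.12, where 75.7% of all tested genes were called. RFX5, the DNA-binding subunit of the RFX complex, averaged 104 ± 7.36 CPM in olaparib and 67.5 ± 4.71 CPM in DMSO, 1.54-fold higher in olaparib (edgeR adjusted p = 0.00012). RFXAP, another RFX subunit, averaged 10.2 ± 0.365 CPM in olaparib and 24.7 ± 0.566 CPM in DMSO, 2.43-fold lower in olaparib (edgeR adjusted p = 1.55e-06). RFX subunits thus moved in opposite directions, and RFXANK had a log2 fold change of -0.12 ± 0.12 (edgeR adjusted p = 0.389). NFYB, a subunit of NF-Y, averaged 27.4 ± 4.36 CPM in olaparib and 21.8 ± 0.597 CPM in DMSO (edgeR adjusted p = 0.0419), but was not called when any library other than olaparib replicate 1 was left out. Over all its alternatives the adjusted p ran from 0.0103 to 0.189. NFYA (log2 fold change 0.03, edgeR adjusted p = 0.809) and NFYC (-0.17, 0.287), the other NF-Y subunits, and CREB1 (-0.17, 0.202), an X2 box binder, were not called. NFYC was called lower without DMSO replicate 1 (-0.34), with an adjusted p that ran from 0.0119 to 0.716 over its alternatives. CREB1 was called lower without DMSO replicate 2 (-0.28), with an adjusted p that ran from 0.0231 to 0.424.

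Among 12 coactivators and corepressors linked to CIITA, 3 rose, 5 fell and 4 were not called, with a median log2 fold change of -0.07. Across all tested genes, 75.7% were called. PRDM1, a repressor of the CIITA gene in plasma cells, averaged 32.9 ± 3.11 CPM in olaparib and 2.57 ± 0.166 CPM in DMSO, 12.8-fold higher in olaparib (edgeR adjusted p = 1.23e-09). NCOA1, a coactivator with acetyltransferase activity, was 2.6-fold lower (edgeR adjusted p = 2.04e-06). The deacetylases HDAC2 (1.65-fold lower, edgeR adjusted p = 2.27e-05) and HDAC1 (1.58-fold lower, 0.000245) also fell. KAT2B, an acetyltransferase that acts on CIITA and is named in the title of the study, averaged 24.4 ± 1.46 CPM in olaparib and 23.7 ± 3.15 CPM in DMSO, and the sign of its log2 fold change of 0.04 ± 0.13 (edgeR adjusted p = 0.792) was turned by scaling with library size alone (-0.03).

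The interferon-gamma pathway that induces CIITA changed in both directions. IFNG had 0 counts in all 6 libraries. Of the 13 other genes, all tested, 8 rose and 5 fell, with a median log2 fold change of 0.79. Without olaparib replicate 2 or 3, 3 rather than 5 were lower. The share of all tested genes was 35.4% higher and 40.3% lower. IRF1, a factor that acts on the CIITA gene, was 2.07-fold higher in olaparib (edgeR adjusted p = 2.95e-05). IFNGR2, the signalling chain of the receptor, averaged 16.7 ± 1.21 CPM in olaparib and 52.0 ± 6.25 CPM in DMSO, 3.12-fold lower in olaparib (edgeR adjusted p = 1.5e-07). The feedback inhibitor SOCS3 was 6.64-fold higher (edgeR adjusted p = 7.47e-08), whereas SOCS1, a related inhibitor that lies near CIITA, was 6.12-fold lower (0.000155). PTPN6, a phosphatase that restrains cytokine receptors, was 12.0-fold higher (edgeR adjusted p = 1.43e-09). NLRC5, the relative of CIITA that switches on class I genes, averaged 145 ± 18 CPM in olaparib and 18 ± 2.57 CPM in DMSO, 8.05-fold higher in olaparib (edgeR adjusted p = 2.72e-09).

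The enzymes that act on CD74 and on class II molecules lay in both directions. Of 16 processing and turnover genes, 10 rose, 4 fell and 2 were not called, with a median log2 fold change of 0.87. Over all tested genes, 35.4% were higher and 40.3% lower in olaparib. CTSS, the protease that makes the last cuts in CD74 in antigen-presenting cells, averaged 35.6 ± 4.3 CPM in olaparib and 0.212 ± 0.155 CPM in DMSO, 152-fold higher in olaparib (edgeR adjusted p = 1.34e-09). CTSV, the protease that takes this role in human thymic epithelium, averaged 2.01 ± 0.372 CPM in olaparib and 21.9 ± 2.46 CPM in DMSO, 10.8-fold lower in olaparib (edgeR adjusted p = 1.24e-08). The lysosomal proteases CTSF (4.95-fold higher, edgeR adjusted p = 2.1e-08) and CTSD (5.27-fold higher, 4.73e-08) rose. MARCHF1, a ubiquitin ligase that removes class II from the cell surface, was 2.83-fold higher (edgeR adjusted p = 9.83e-06). IFI30, the lysosomal thiol reductase, was low in both groups (0.506 ± 0.199 CPM, olaparib; 0.435 ± 0.235 CPM, DMSO).

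CD74 at the cell surface is also a receptor for the cytokine MIF. Of its 6 listed partners, 3 were tested and rose, with a median log2 fold change of 2.24, where 35.4% of all tested genes were higher. CD44, its signalling partner, averaged 396 ± 20 CPM in olaparib and 50.3 ± 2.96 CPM in DMSO, 7.88-fold higher in olaparib (edgeR adjusted p = 4.78e-10). The chemokine receptors CXCR4 (4.71-fold higher, edgeR adjusted p = 5.81e-09) and ACKR3 (1.94-fold higher, 0.00106) rose too. The cytokines MIF (0.0686 CPM in olaparib and 0.233 CPM in DMSO) and DDT (0.0817 CPM in olaparib and 0.332 CPM in DMSO) were too low to test in this table, and CXCR2 had 0 counts in all 6 libraries.

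Of 10 costimulation and adhesion genes, 8 were tested: 5 rose, 2 fell and 1 was not called, with a median log2 fold change of 1.01. Among all tested genes, 35.4% were higher and 40.3% lower in olaparib. CD40, through which T cells activate antigen-presenting cells, had 0 counts in olaparib and 8.32 ± 0.526 CPM in DMSO, which made it at least 243-fold lower in olaparib (edgeR adjusted p = 3.33e-08). The adhesion ligands ICAM1 (25.6-fold higher, edgeR adjusted p = 1.31e-08) and CD58 (3.05-fold higher, 3.97e-07) and the checkpoint ligand PDCD1LG2 (16.7-fold higher, 0.000301) rose. PDCD1LG2 held 0, 1 and 3 counts in DMSO, and its log2 fold change of 4.06 became 3.46 without DMSO replicate 1 and 5.13 without DMSO replicate 3. Of the classical CD28 ligands, CD80 had 0 counts in all libraries and CD86 had 28, 6 and 6 counts in olaparib and 0 in DMSO.

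All 15 class I presentation genes tested rose, with a median log2 fold change of 1.92 against -0.09 over all tested genes and 35.4% of all tested genes higher. Besides PSMB8, the 3 with the smallest adjusted p were PSMB9, an immunoproteasome subunit (7.18-fold higher, edgeR adjusted p = 2.85e-09), ERAP1, which trims peptides (6.53-fold, 4.8e-09), and TAPBP, which loads them (3.8-fold, 5.61e-09). The class II chain genes at 0 counts in olaparib thus stood in the same libraries, and in part in the same stretch of chromosome 6, as higher class I genes.

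**Figure D4:**
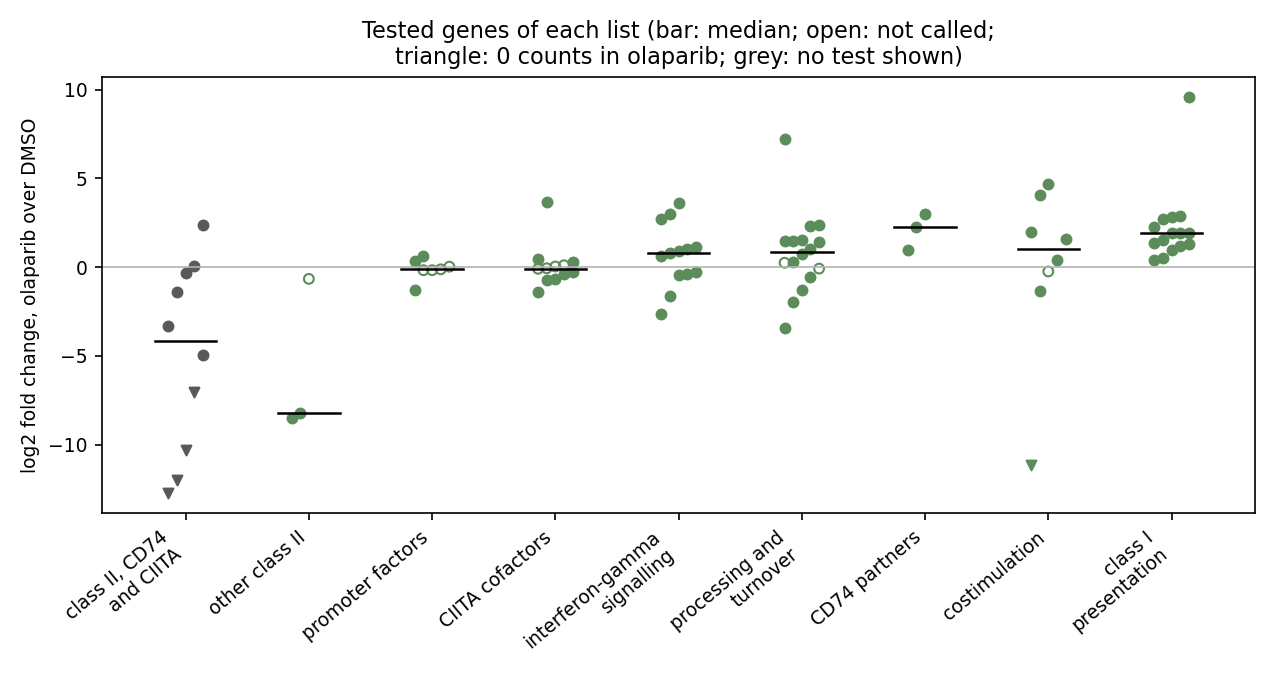
Log2 fold change, olaparib over DMSO, of every tested gene of each list, with 1 point for a gene and a bar for the median. Filled green points passed the edgeR test, open points did not, triangles are genes with 0 counts in olaparib, whose fitted value is no bound, and grey points are the 10 class II, CD74 and CIITA genes, with no test shown. The class I points all lie above 0, the promoter factors lie close to 0 apart from RFXAP, and the grey points run from above 2 to below -12.

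Markers of blood cells that carry class II molecules did not move as whole lists. The 6 leukocyte markers summed to 385 to 429 CPM in olaparib and 12.9 to 18.5 CPM in DMSO, nearly all of it LCP1, an actin-bundling protein that many carcinoma lines also make (408 CPM in olaparib and 1.28 CPM in DMSO). PTPRC, the defining leukocyte surface protein, averaged 0.223 CPM in olaparib and 0.0225 CPM in DMSO. Of the 4 leukocyte markers tested, 2 were higher and 2 lower. Over all tested genes, 35.4% were higher and 40.3% lower in olaparib. IKZF1 had 0 counts in olaparib and 0.912 CPM in DMSO. The 6 B cell markers summed to 7.01 to 11.1 CPM in olaparib and 3.17 to 5.37 CPM in DMSO. Of the 3 tested, CD22 was higher (log2 fold change 5.14, or 6.86 without DMSO replicate 2). CD79A was lower (-2.43, or -4.46 without olaparib replicate 1), but was not called without olaparib replicate 2 (-1.84) or 3 (-2.08). MS4A1 had 0 counts in olaparib and 1 count in DMSO.

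The 6 monocyte markers summed to 0.767 to 1.83 CPM in olaparib and 1.75 to 2.59 CPM in DMSO, where CSF1R was lower (log2 fold change -1.11, not called at -0.95 without DMSO replicate 1 or at -0.86 without olaparib replicate 1), CD14 was not called and FCGR3A had 0 counts. The 6 dendritic cell markers had 0 counts in olaparib and summed to 1.75 to 2.44 CPM in DMSO. FLT3 held most of that sum (2.14 CPM in DMSO), and CD1C, FCER1A, CLEC9A and CLEC10A had 0 counts in all 6 libraries. In the DMSO libraries, where HLA-DRB1 and HLA-DQB1 were detected, PTPRC, MS4A1, LYZ and CD1C were at or near 0, but other markers were present. The leukocyte marker CORO1A averaged 13.8 CPM in DMSO and 0.411 CPM in olaparib (edgeR adjusted p = 2.12e-08). The B cell marker PAX5 averaged 1.08 CPM in DMSO and 0.0218 CPM in olaparib. IKZF1 (0.912 CPM), FLT3 and CSF1R (1.72 CPM) were also present in DMSO at low levels. The part of blood cells in the class II levels was not tested.

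Genes whose level followed CIITA and CD74 across the 6 libraries were sought among 13028 other protein-coding genes whose mean was 1 CPM or more. For CIITA, the highest Pearson r on log2(CPM + 0.05) was 0.98 for ZNF136, 0.98 for ABCA8 and 0.97 for NOXRED1, and 35 genes reached 0.9. For CD74 it was 0.99 for PRKCE, 0.99 for CHRNA10 and 0.98 for FNDC5, and 117 genes reached 0.9. CD74 was lowest in olaparib replicate 1, with 2 counts, and these 3 genes were also lowest there. PRKCE ran only from 13.4 to 17.3 CPM, so its high r does not mean a change of similar size. These 6 points share group and library, and fall into the 2 groups, so the correlations describe these libraries only. The 10 genes described here were left out of this search, so none of their chain genes could appear. HLA-DPA1, HLA-DPB1 and HLA-DOA could, and none was among the 3 closest to either.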

How the data were processed

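RNA was sequenced from 6 libraries. The authors deposited raw read counts per gene symbol, and per the submitters' processing notes fastp, STAR and the build hg38 were used. The sources used here do not name the counting program, annotation or strand setting. Groups and replicate numbers came from the sample titles. The 10 genes and all gene lists (8 of pathway genes, 6 of cell markers) were chosen with earlier results of these data known.

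Counts were tested with edgeR 4.0.16 (R 4.3.3): its filterByExpr filter at default settings, TMM scaling, a robust quasi-likelihood fit on group alone, Benjamini-Hochberg adjustment over 17078 genes and calls at 0.05. CPM are counts scaled by the library size after TMM, given as mean ± SD over 3 libraries. Folds against 0 counts used a floor of 3 counts over a group. A group with 1 to 3 counts is given as a ratio with a 95% counting interval. Genes with 2 counts outnumbered genes with 1 in each library, a pattern that counting both mates of a read pair would give. Floors and intervals are then narrower than they should be, and they cover counting error only. Libraries of the same group differed beyond sampling noise (chi-square per degree of freedom 4.74 to 68.57) and were kept as separate replicates.

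Positions, transcript lengths (median over transcripts in the consensus coding set) and shared 50-base words came from GENCODE 29, matched by symbol for 93.7% of symbols. Named genes were all 10 genes, all promoter factors, all other class II genes with a count and, of each other pathway list, the called genes with the 4 smallest adjusted p. Other genes named, such as IRF1, SOCS1, MARCHF1, KAT2B and the neighbours, were chosen after their values were seen. Some genes of the lists are counted but not reported here by name. Alternatives were DESeq2 1.42.0, limma-voom 3.58.1, RLE factors, library size alone, other filters, halved counts, the replicate number as a block and the loss of each library.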

Additional observations from a re-analysis of the deposited data

How the results depend on the processing

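Of 96 list genes tested and compared, 78 kept direction and call under all 14 alternatives and 18 changed under at least 1; 9 of the 10 class II, CD74 and CIITA genes kept their sign, with HLA-DMA the exception. CD74 lost its call under DESeq2, with the replicate block and without any library except olaparib replicate 2. The median log2 fold change of the 10 genes was -2.3 with counts divided by 2, where HLA-DRA and HLA-DQA1 were not tested, and -6.81 with a filter of 1 CPM, where 6 of them were tested. It ran from -5.49 to -3.73 as each library was left out. Without olaparib replicate 1, which holds both olaparib counts of HLA-DRA, that gene's fitted value, which is then no bound, was -7.85. With no filter, 4 of the other class II genes were lower and 1 higher. The promoter factors higher in olaparib numbered 1 with library size alone, with no filter and with the replicate block, and 1 to 2 as each library was left out, with 1 to 2 lower. Lower interferon-gamma genes ran from 3 to 5 as each library was left out. Genes that were not called and changed sign as single libraries were left out were CD14 (-0.11 to 0.78), EP300 (-0.1 to 0.27), IFI30 (-0.12 to 0.66), KAT2B (-0.07 to 0.11), NFYA (-0.07 to 0.09) and SIN3A (-0.13 to 0.0, the last just above 0 before rounding). Scaling by library size alone also turned KAT2B (-0.03) and NFYA (-0.04). The cause of these changes was not tested. Same-numbered libraries did not deviate together (r from -0.187 to -0.013 over 3 pairs), and 0 of 3 olaparib libraries were closest to their own number. With 3 pairs, weak pairing could be neither seen nor excluded. The replicate block called 12426 genes, against 12927 without it. Depth limits the lowest genes most: HLA-DRA, HLA-DQA1 and CD74 rest on at most 53 counts in a library.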
